A study of Mus musculus with 12 samples.

Results

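The retina passes light signals from cell to cell with glutamate, and 9 genes that encode AMPA and kainate receptor subunits are described here across 12 libraries of mouse retina RNA. The 4 AMPA receptor subunit genes (Gria1 to Gria4) and the 5 kainate receptor subunit genes (Grik1 to Grik5) were taken by exact match of their names from a table of 55487 genes. All 9 were present, and all 9 passed the filter on low values, which kept genes whose mean exceeded 1 FPKM in any of the 6 groups. FPKM scales the fragments of a gene by its transcript length and by the size of the library, so levels can be compared between genes.

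The study asked how the transcription factor PAX6 and the kinase JNK3 bear on the injury that NMDA causes in the retina. Retinas were C57BL/6J (WT), C57BL/6J infected with AAV2.7m8 carrying pU6-shPax6-GFP, a virus that delivers a short hairpin RNA against Pax6 (shPax6, 2 μL), or Jnk3-/- (JNK3 KO). Each kind received 1 μL of PBS or 1 μL of 40 mM NMDA (40 nmol) into the vitreous, which gives 6 groups of 2 libraries. Each library held poly(A) RNA pooled from several retinas, and the libraries of WT and shPax6 are described as biological replicates. Nothing in the sources says whether the 2 libraries of a group came from separate animals, so p-values measure the spread between these libraries. No library from retinas given the shScramble vector was analysed here, so infection and knockdown cannot be told apart. The mice given shPax6 are described as 2 months old, while the age of the JNK3 KO mice and the time between NMDA and collection are not given in the sources used here.

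AMPA receptors are tetramers that open within milliseconds of glutamate release and carry most fast excitation in the central nervous system. Their depolarisation lifts the magnesium block of NMDA receptors, and the presence of edited GluA2, the product of Gria2, keeps calcium from passing through the AMPA receptor pore. Kainate receptors are built from GluK1 to GluK3, the products of Grik1 to Grik3, with GluK4 and GluK5 as partners that need them to form channels, and in the retina they are best known for carrying cone signals to OFF bipolar cells, while ganglion, amacrine and horizontal cells use AMPA receptors.

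The targeted genes come first, since they check the labels. Pax6 had 173 and 177 FPKM in WT PBS, 94.6 and 92.8 in shPax6 PBS, 187 and 191 in JNK3 KO PBS, 55.4 and 53.8 in WT NMDA, 67.5 and 58.7 in shPax6 NMDA, and 129 and 138 in JNK3 KO NMDA. In shPax6 retinas under PBS it thus lay at 53.4% of the WT level, a log2 fold change of -0.90 (adjusted p = 6.04e-05 by limma with Benjamini-Hochberg adjustment), but the shPax6 NMDA libraries were both above the WT NMDA libraries. Mapk10, which encodes JNK3, had 42.8 and 50.7 FPKM in WT PBS, 20.9 and 21.3 in shPax6 PBS, 9.47 and 8.75 in JNK3 KO PBS, 8.98 and 6.00 in WT NMDA, 16.2 and 8.85 in shPax6 NMDA, and 6.65 and 13.8 in JNK3 KO NMDA. Under PBS its level in JNK3 KO was 19.5% of WT, with a log2 fold change of -2.34 (SE 0.36; adjusted p = 0.0215 by limma with Benjamini-Hochberg adjustment). After NMDA the WT and JNK3 KO libraries overlapped for Mapk10, so it separates these genotypes under PBS alone.

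The 2 WT NMDA libraries stood apart from the other 10. Their FPKM summed to 805627 and 820180 over all genes, against 541210 to 576922 elsewhere. In the WT comparison of NMDA with PBS, the log2 fold change of all genes followed transcript length across genes (Spearman's rho -0.565, genes not being independent), with a median of 1.03 for genes under 1 kb and of -1.54 for those over 6 kb. The same rho was -0.173 in shPax6, 0.229 in JNK3 KO, -0.045 for shPax6 against WT under PBS and -0.363 for JNK3 KO against WT under PBS. The mean transcript length of the subunit genes ran from 2759 bases for Grik1 to 8973 for Grik3, so the WT log2 fold change of each subunit gene after NMDA is given below both as deposited and after each library was corrected for its trend on length. For WT after NMDA the partner genes and the marker counts are given both ways too, while levels, shares, ratios and transcripts are as deposited. The trend is in both WT NMDA libraries, so leaving out 1 of them cannot remove it.

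Cell type markers moved with the groups as well. The 12 markers of retinal ganglion cells, led by Thy1, summed to 692 and 718 FPKM in WT PBS, 440 and 460 in WT NMDA, 234 and 230 in shPax6 PBS, 100.8 and 84.4 in shPax6 NMDA, 714 and 669 in JNK3 KO PBS, and 199 and 198 in JNK3 KO NMDA. The 10 amacrine markers, led by Calb2, summed to 547 and 561 in WT PBS, 252 and 245 in WT NMDA, 373 and 363 in shPax6 PBS, 105 and 103 in shPax6 NMDA, 543 and 537 in JNK3 KO PBS, and 264 and 266 in JNK3 KO NMDA. The 6 markers of cone OFF bipolar cells, led by Syt2, summed to 40.8 and 37.6 in WT PBS, 21.9 and 26.7 in WT NMDA, 23.8 and 26.5 in shPax6 PBS, 18.7 and 16.4 in shPax6 NMDA, 35.0 and 36.8 in JNK3 KO PBS, and 42.2 and 39.4 in JNK3 KO NMDA. Ganglion and amacrine sums were thus lower after NMDA in all 3 genotypes, and OFF bipolar sums in WT and shPax6 and not in JNK3 KO. Of the ganglion cell markers 10, 9 and 9 of 12 were lower at an adjusted p under 0.05 in WT, shPax6 and JNK3 KO, of the amacrine markers 8, 10 and 3 of 10, and of the OFF bipolar markers 5, 3 and 0 of 6 by limma, with 0 lower at an unadjusted p under 0.05 in JNK3 KO. Thy1 itself was not called in WT, at a log2 fold change of 0.01, and Stmn2, singled out after its values were seen, was the 1 ganglion cell marker called higher there, at 0.62. Corrected for length, 10 ganglion cell markers (Thy1 among them, at -0.69), 8 amacrine markers and 0 OFF bipolar markers were lower in WT by limma, and Stmn2 was not called at 0.35. The 7 cone markers, led by Gngt2, summed to 608 and 631 FPKM in WT PBS, 1002 and 1065 in WT NMDA, 1252 and 1148 in shPax6 PBS, 309 and 282 in shPax6 NMDA, 697 and 661 in JNK3 KO PBS, and 406 and 398 in JNK3 KO NMDA. Of them 3 were lower and 2 higher after NMDA in WT, or 4 and 2 corrected for length. In shPax6 7 were lower on both scales, and in JNK3 KO 6, or 5 corrected for length. The 8 markers of bipolar cells as a whole, led by Gng13, summed to 726 and 723 in WT PBS and 1738 and 1717 in WT NMDA, where 4 were lower and 3 higher, or 1 and 3 corrected for length, and to 504 to 785 in the other 8 libraries. The 7 microglia markers, led by C1qa, summed to 37.6 and 41.0 in WT PBS, 71.1 and 74.6 in WT NMDA, 135 and 122 in shPax6 PBS and 379 and 358 in shPax6 NMDA, and to 39.9 to 50.1 in the JNK3 KO libraries. After NMDA 3 of these were lower and 3 higher in WT, or 2 and 1 corrected for length, and 3 were higher in shPax6. Of the 3 tested markers of the retinal pigment epithelium 3 were lower in shPax6 and 0 were called in JNK3 KO. In WT 2 were lower and 1 higher, or 2 and 0 corrected for length. The 4 neutrophil markers, led by S100a9, summed to 206 and 229 in WT PBS, 1937 and 1978 in WT NMDA, 5.87 and 4.89 in shPax6 PBS, 63.7 and 71.0 in shPax6 NMDA, 149 and 162 in JNK3 KO PBS, and 12.7 and 13.6 in JNK3 KO NMDA. Neutrophil sums thus differed between genotypes already under PBS. Over all 14 lists of cell type markers, 89 of 90 genes were in the table and 86 were tested, of which 47 were lower and 23 higher after NMDA in WT (beside 33.8% and 26.0% of all genes tested), 45 and 18 in shPax6 (beside 11.0% and 19.1%), and 32 and 8 in JNK3 KO (beside 6.10% and 4.33%). Corrected for length, the WT counts were 36 lower and 19 higher, beside 22.1% and 23.8% of all genes. None was at 0 in all 12 libraries. Their part in the subunit results was not tested, and fewer cells of a type and less RNA per cell cannot be told apart in whole retina.

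The pore of each subunit holds a site at which the RNA of Gria2, Grik1 and Grik2 can be edited from glutamine to arginine. The genome's version of that site is shown for all 9 genes because it is the feature that makes GluA2 the subunit of calcium control. The 27 bases around the codon are coding sequence of GENCODE M21 transcripts on GRCm38, written 5′ to 3′ on the gene's own strand, with the codon in capitals. FPKM do not measure editing.
Gria1: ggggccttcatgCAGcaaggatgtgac
Gria2: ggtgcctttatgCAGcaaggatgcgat
Gria3: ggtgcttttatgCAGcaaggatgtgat
Gria4: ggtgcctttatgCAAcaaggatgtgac
Grik1: ggagctctcatgCAGcaaggatcggag
Grik2: ggagctctcatgCAGcaaggttctgag
Grik3: ggctccctgatgCAGcaaggatctgaa
Grik4: ggaggcttcatgCAGcaaggctccact
Grik5: ggtggcttcatgCAGcagggctcggag
The codon was CAG in every subunit except Gria4, which has CAA, and both encode glutamine. It lies on the plus strand at chr11:57243094-57243096 in exon 11 of Gria1, chrX:41610265-41610267 in exon 11 of Gria3 and chr4:125691207-125691209 in exon 12 of Grik3. On the minus strand it lies at chr3:80706911-80706913 in exon 11 of Gria2, chr9:4464137-4464139 in exon 11 of Gria4, chr16:87940542-87940544 in exon 13 of Grik1, chr10:49244329-49244331 in exon 13 of Grik2, chr9:42547623-42547625 in exon 16 of Grik4 and chr7:25022497-25022499 in exon 15 of Grik5. Exons are numbered in Gria1-202, Gria2-202, Gria3-209, Gria4-204, Grik1-209, Grik2-207, Grik3-201, Grik4-202 and Grik5-201. Of these models Grik1-209 and Grik4-202 did not pass the filter on low values, and other models can number the exons otherwise. The Grik1, Grik2 and Grik3 stretches run across an exon junction.

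In uninjured WT retinas the subunits covered a wide range of levels, with Grik1 as the most abundant. Grik1 stood at 68.8 ± 1.24 FPKM (SD, n = 2), followed by Gria2 at 32.5 ± 1.24 (SD, n = 2) and Grik5 at 28.5 ± 2.35 (SD, n = 2). Gria4 at 20.0 ± 0.13 (SD, n = 2) and Gria1 at 19.8 ± 0.64 (SD, n = 2) overlapped, and their order is not resolved. Gria3 followed at 10.3 ± 0.30, Grik2 at 5.35 ± 0.17, Grik3 at 2.05 ± 0.06 and Grik4 at 1.55 ± 0.07 (SD, n = 2). An estimate from the steps between low values put the depth at 21100000 to 27200000 fragments per library, with 56.8 to 85.1% of those values within 0.1 of a whole number of fragments at the step that fitted best. On that scale Gria2 rested on about 578 to 3812 fragments per library, Grik3 on 31 to 466 and Grik4 on 43 to 141. The Grik3 estimates in the 2 WT NMDA libraries were 31 and 65, and those of Grik4 there 106 and 67.

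**Figure D1:**
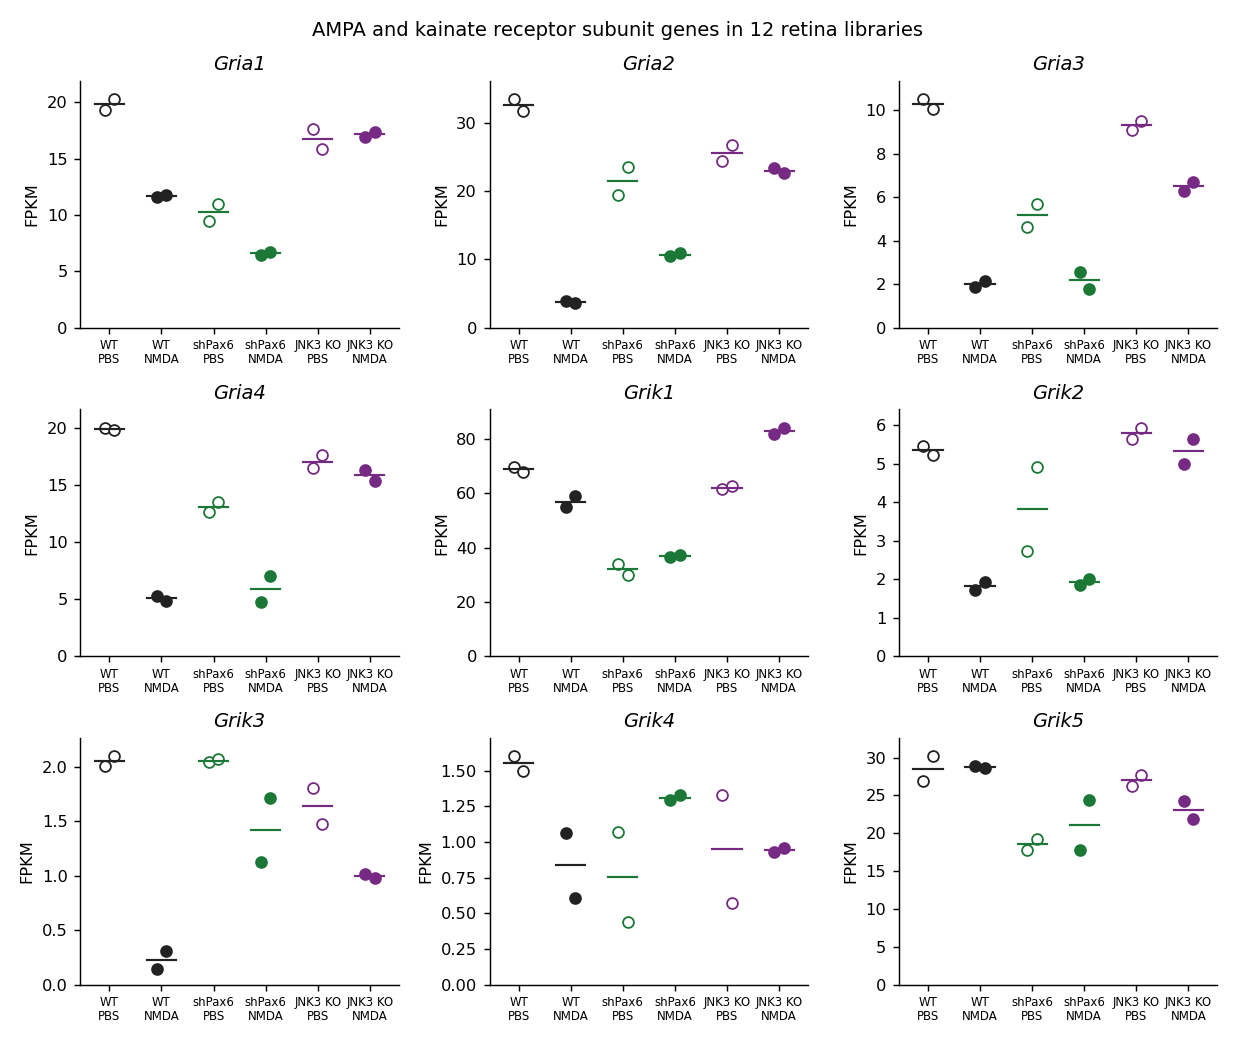
FPKM of each subunit gene (vertical axes, each from 0) in 6 groups of 2 libraries; open points are PBS, filled points NMDA, and lines the mean of a group. For Gria2 the WT PBS points lie at 33.4 and 31.7 FPKM, those of WT NMDA at 3.88 and 3.62, while Grik5 overlaps between these groups.

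In WT retinas, 7 of the 9 subunit genes were lower after NMDA at an adjusted p under 0.05 by limma with Benjamini-Hochberg adjustment, and 0 were higher, also at an unadjusted p under 0.05. Of all 16471 genes tested, 33.8% were lower and 26.0% higher, and the median log2 fold change was -1.5 for the subunits and -0.09 for all genes. This background depends on length: 76.9% of genes of 4 to 6 kb and 90.5% of those over 6 kb were lower, and 6 of the 9 subunits have a mean length above 4 kb. The count of 7 is close to that background and by itself no result about the subunits. Rescaling to TPM moved the median of all genes to -0.66 and the share of calls that were higher from 43.5 to 21.4%, and made 9 of 9 subunits lower. After correction for length 4 subunits were lower and 2 higher, beside 22.1% and 23.8% of all genes.

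Gria2, the subunit that controls calcium entry, fell most among the AMPA subunits. Its FPKM were 33.4 and 31.7 in WT PBS and 3.88 and 3.62 in WT NMDA, which is a log2 fold change of -3.08 (SE, the standard error, 0.11; adjusted p = 6.21e-08 by limma). Both NMDA libraries were far below both PBS libraries, at 11.5% of their mean. Corrected for length the value was -2, and over all 24 alternative settings the adjusted p ran from 3.23e-08 to 0.00126, so the fall kept its direction and its call in each of them.

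Gria3 and Gria4 fell as well. Gria3 went from 10.5 and 10.1 FPKM in WT PBS to 1.87 and 2.13 in WT NMDA, a log2 fold change of -2.31 (adjusted p = 8.28e-06 by limma), or -1.27 corrected for length. Gria4 went from 20.1 and 19.9 FPKM to 5.32 and 4.80, a log2 fold change of -1.96 (adjusted p = 7.90e-06 by limma), or -0.99 corrected for length. For both genes the NMDA libraries lay below the PBS libraries with no overlap, and both corrected values passed the threshold.

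Gria1 was the AMPA subunit whose direction depended on the scale. It stood at 19.4 and 20.3 FPKM in WT PBS and 11.6 and 11.8 in WT NMDA, a log2 fold change of -0.76 (adjusted p = 0.000216 by limma). Both NMDA libraries were lower in FPKM, but less so than most genes of its length, and corrected for length it was higher, at 0.39 (adjusted p = 0.0185 by limma, with a range from 4.16e-06 to 0.0185 over 24 alternatives). A fall of all 4 AMPA subunits was thus found in FPKM as deposited, TPM, 75th-percentile scaling and quantile normalization, and for Gria1 it turned to a rise under the length correction.

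The kainate subunits went separate ways. Grik1, the channel-forming subunit of OFF bipolar cells, was at 69.7 and 67.9 FPKM in WT PBS and 54.8 and 58.9 in WT NMDA, a log2 fold change of -0.28 (adjusted p = 0.00849 by limma). The groups did not overlap, but the value was -0.22 with an adjusted p of 0.0541 without WT NMDA replicate 1, and 0.03 corrected for length. Its adjusted p ran from 4.78e-06 to 0.753 over 24 alternatives. Grik2 stood at 5.47 and 5.23 FPKM against 1.71 and 1.94, a log2 fold change of -1.5 (adjusted p = 0.00071 by limma), which was -0.45 and not called when corrected for length. Grik3 fell from 2.01 and 2.10 FPKM to 0.14 and 0.31, a log2 fold change of -2.78 (adjusted p = 0.000106 by limma), or -1.18 corrected, still called. Neither gene overlapped between groups, and the Grik3 fall is measured from few fragments in the NMDA libraries, about 31 in the lower one.

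The partner subunits Grik4 and Grik5 were not called in FPKM as deposited. Grik4 stood at 1.6 and 1.5 FPKM in WT PBS and 1.06 and 0.61 in WT NMDA, a log2 fold change of -0.86 with a 95% interval from -1.98 to 0.25 (adjusted p = 0.162 by limma). It was -0.11 corrected for length (adjusted p = 0.881 by limma) and passed at -1.43 in TPM (adjusted p = 0.0348 by limma), which are also the ends of its range over 24 alternatives. Grik5 stood at 26.8 and 30.2 FPKM against 28.9 and 28.6, a log2 fold change of 0.01 with an interval from -0.30 to 0.33 (adjusted p = 0.949 by limma). Its groups overlapped, and its direction turned with the scale, at -0.56 in TPM and 0.60 corrected for length, both called. Over 24 alternatives its adjusted p ran from 0.00681 to 1.

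**Figure D2:**
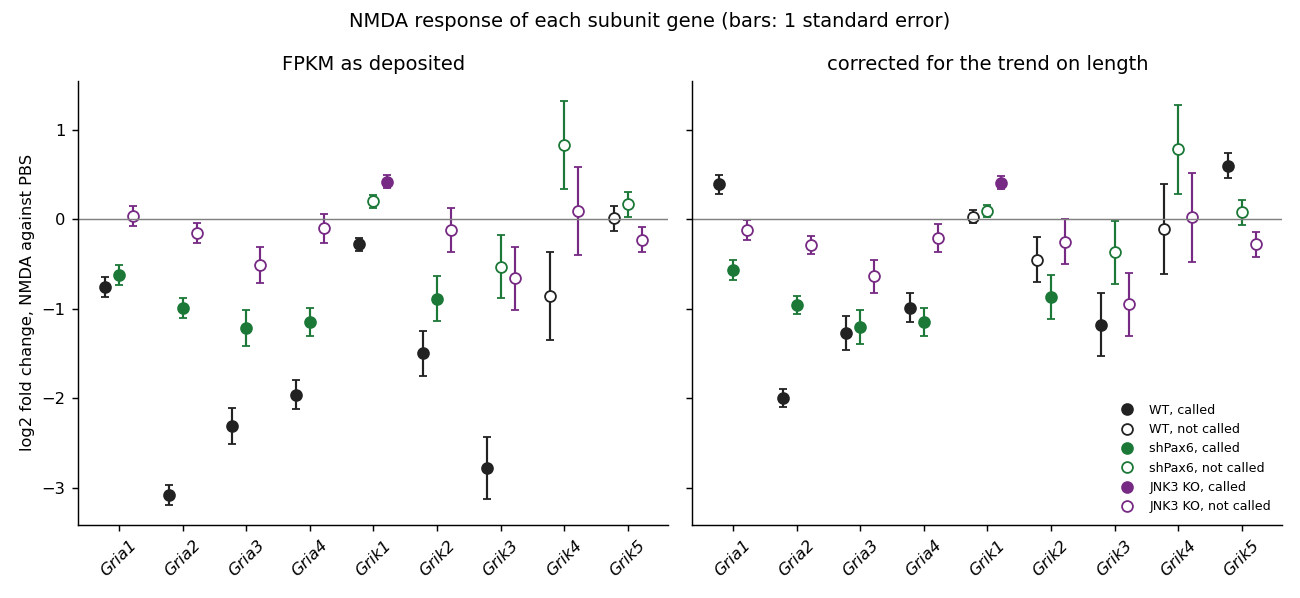
Log2 fold change of NMDA against PBS (vertical axis) for each subunit gene in WT (black), shPax6 (green) and JNK3 KO (purple), from FPKM as deposited (left) and corrected for the trend on length (right); bars are 1 standard error, and filled points passed the adjusted p. Gria2 in WT is at -3.08 on the left and -2 on the right, and Gria1 in WT changes from -0.76 to 0.39.

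**Figure D3:**
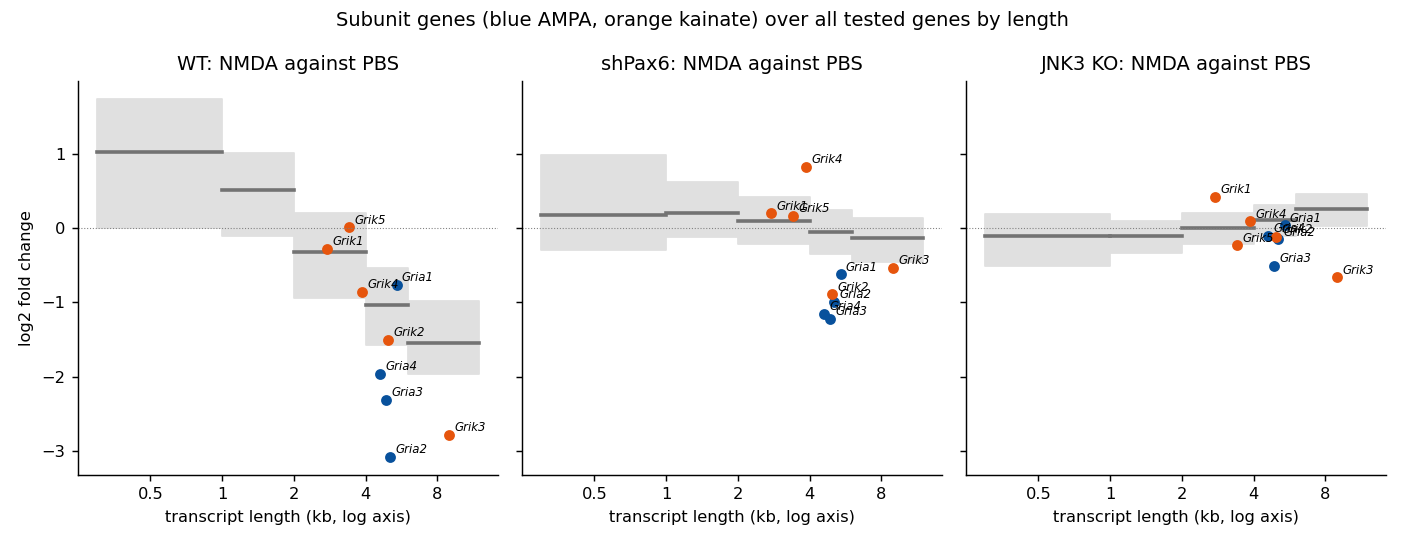
Log2 fold change of NMDA against PBS (vertical axis) over transcript length in kb (log axis) in 3 genotypes; blue points are AMPA and orange points kainate subunits, grey bands run from the lower to the upper quartile of all tested genes in 5 length classes, dark lines are their medians, and the outermost classes have no outer limit. In WT, Gria2, Gria3 and Gria4 lie below the band of genes of 4 to 6 kb and Gria1 lies above its median of -1.04.

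The makeup of the AMPA subunit pool differed between WT groups as well. Gria2 made up 40.1 and 38.7% of the summed AMPA FPKM in WT PBS and 17.1 and 16.2% in WT NMDA, while Gria1 made up 23.2 and 24.8% and then 51.2 and 52.8%. In the shPax6 NMDA libraries Gria2 held 43.1 and 41.0%, and in the JNK3 KO NMDA libraries 37.1 and 36.4%. In gene FPKM Gria1 was thus the leading AMPA subunit in the 2 WT NMDA libraries, and Gria2 in the other 10. Gene FPKM take in transcripts not annotated as protein-coding, such as the retained-intron Gria2-206, at 9.71 and 9.06 in WT PBS. The protein-coding Gria2-201 and Gria2-202 stood there at 4.99 and 5 and at 12.7 and 11.0, beside 19.4 and 20.3 for Gria1. Shares of protein-coding transcripts alone were not computed, so this order holds for gene FPKM only. The mean transcripts of Gria1 and Gria2 are 5391 and 5083 bases long. These shares are values with no test, and the part of the trend on length in them was not tested.

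The AMPA sum itself was 83.3 and 81.9 FPKM in WT PBS and 22.7 and 22.4 in WT NMDA. The kainate sum was 106 and 107 FPKM and then 86.6 and 90.3, so that the ratio of kainate to AMPA FPKM went from 1.27 and 1.31 to 3.82 and 4.04. In shPax6 that ratio was 1.25 and 1.05 under PBS and 2.40 and 2.52 after NMDA, and in JNK3 KO 1.43 and 1.41 and then 1.80 and 1.83. All 6 NMDA libraries were above the PBS libraries of their own genotype. Grik1, the shortest of the 9, held 52.9 to 74.1% of the kainate FPKM over the 12 libraries. The part of the trend on length in this ratio was not tested. The kainate sums take in the retained-intron Grik1-204, at 16.7 and 15.4 FPKM in WT PBS and 32.7 and 32.8 in WT NMDA. They also take in Grik5-202, annotated as a target of nonsense-mediated decay, at 2.80 and 0.77 and then 24.2 and 21.8. The ratio for protein-coding transcripts alone was not computed.

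**Figure D4:**
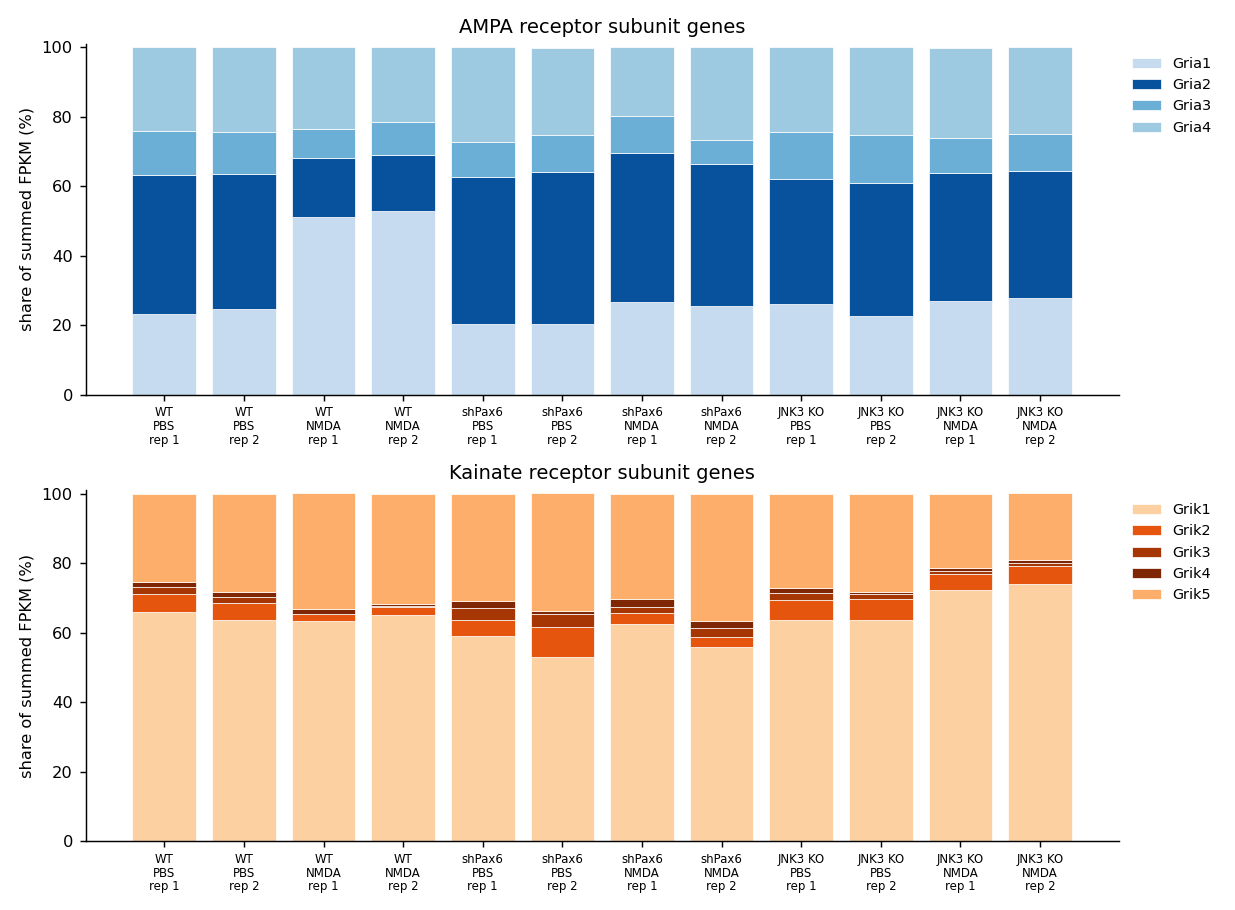
Share of each subunit gene in the summed AMPA FPKM (top) and the summed kainate FPKM (bottom), in percent, for each of 12 libraries. Gria2 holds 17.1 and 16.2% in the WT NMDA libraries and from 36.0 to 43.7% in the others.

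In shPax6 retinas, 5 of the 9 subunits were lower after NMDA (Gria1 to Gria4 and Grik2) and 0 were higher by limma with Benjamini-Hochberg adjustment, with 1 higher at an unadjusted p under 0.05, beside 11.0% of all genes lower and 19.1% higher. The median was -0.62 for the subunits and 0.10 for all genes, which quantile normalization moved to -0.04, the length correction to -0.03 and 75th-percentile scaling to -0.01. These took the share of calls that were higher from 63.4% to 44, 47.5 and 48.6%. With the spread taken from these groups alone 0 were called, with 4 lower at an unadjusted p under 0.05.

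Gria2 went from 19.4 and 23.5 FPKM in shPax6 PBS to 10.5 and 10.9 in shPax6 NMDA, a log2 fold change of -0.99 (SE 0.11, adjusted p = 0.000192 by limma). Gria3 went from 4.65 and 5.71 to 2.58 and 1.79 (log2 fold change -1.22, adjusted p = 0.00157 by limma). Gria4 went from 12.7 and 13.5 to 4.79 and 7.06 (log2 fold change -1.15, adjusted p = 0.000842 by limma). For these 3 genes each NMDA library was below each PBS library. Gria1 went from 9.46 and 11.02 FPKM to 6.49 and 6.76, a log2 fold change of -0.62 (adjusted p = 0.00233 by limma), again without overlap. All 4 kept their call when corrected for length, with Gria1 at -0.57 and Gria2 at -0.96.

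Among the kainate subunits Grik2 went from 2.74 and 4.92 FPKM in shPax6 PBS to 1.86 and 2.01, a log2 fold change of -0.89 (adjusted p = 0.0271 by limma). The PBS libraries stood far apart and both above the NMDA libraries. Without shPax6 PBS replicate 2 the value was -0.48, without shPax6 NMDA replicate 1 -0.84 and without shPax6 NMDA replicate 2 -0.95, none of them called, and the adjusted p ran from 0.00261 to 0.28 over 24 alternatives. Grik1 stood at 34.1 and 30.0 FPKM against 36.5 and 37.2, a log2 fold change of 0.20 (adjusted p = 0.0632 by limma). The groups did not overlap, and without shPax6 PBS replicate 1 it passed at 0.29 (adjusted p = 0.0153, with a range from 0.0153 to 0.427 over 24 alternatives). Without shPax6 PBS replicate 2 it was 0.11, corrected for length 0.09, and with 75th-percentile scaling or quantile normalization 0.08, none of them called. Grik3, Grik4 and Grik5 had log2 fold changes of -0.53, 0.83 and 0.17 and were not called, although Grik5 passed at 0.40 without shPax6 NMDA replicate 1 and stood at -0.06 without replicate 2. The value of Grik4 was 1.38 without shPax6 PBS replicate 1 and 0.27 without shPax6 PBS replicate 2, and that of Grik3 was -0.25 without shPax6 NMDA replicate 1 and -0.81 without shPax6 NMDA replicate 2, with no call.

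In JNK3 KO retinas 1 of the 9 subunits was higher after NMDA and 0 were lower by limma with Benjamini-Hochberg adjustment, with 1 lower at an unadjusted p under 0.05 (Gria3), beside 4.33% of all genes higher and 6.10% lower. The medians were -0.12 for the subunits and -0.01 for all genes. Grik1 rose from 61.4 and 62.8 FPKM to 82.0 and 84.1, a log2 fold change of 0.42 (SE 0.07, adjusted p = 0.00766 by limma). Both NMDA libraries were the highest of the 12, and corrected for length the value was 0.41, also called. The call was lost at 0.40 without JNK3 KO PBS replicate 1 and at 0.40 without JNK3 KO NMDA replicate 2, and the adjusted p ran from 0.00201 to 0.0691 over 24 alternatives.

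The AMPA subunits were not called in JNK3 KO retinas. Gria2 stood at 24.3 and 26.7 FPKM under PBS and 23.4 and 22.6 after NMDA, a log2 fold change of -0.15 with a 95% interval from -0.40 to 0.10 (adjusted p = 0.469 by limma). Gria3 stood at 9.10 and 9.53 FPKM against 6.30 and 6.72, a log2 fold change of -0.51 with an interval from -0.95 to -0.07 (adjusted p = 0.145 by limma). The Gria3 libraries did not overlap, although the adjusted p missed the threshold. Gria1 and Gria4 had log2 fold changes of 0.04 and -0.10, and Grik2, Grik3, Grik4 and Grik5 of -0.12, -0.66, 0.09 and -0.23. Corrected for length, Gria1 to Gria4 were at -0.12, -0.29, -0.64 and -0.21 and Grik2 to Grik5 at -0.25, -0.95, 0.02 and -0.28, with 0 lower by limma and 3 lower at an unadjusted p under 0.05 (Gria2, Gria3 and Grik3). Grik4 stood at 0.64 without JNK3 KO PBS replicate 1 and at -0.45 without JNK3 KO PBS replicate 2.

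Under PBS, 6 of the 9 subunits were lower in shPax6 than in WT retinas and 0 were higher by limma with Benjamini-Hochberg adjustment, also at an unadjusted p under 0.05, beside 11.2% of all genes lower and 5.36% higher. The median was -0.62 for the subunits and -0.06 for all genes. The share of calls that were higher was 32.4%, against 42.5% with quantile normalization and 46.6% corrected for length. In either of these settings 5 subunits were lower. Grik1 stood at 34.1 and 30.0 FPKM against 69.7 and 67.9, a log2 fold change of -1.10 (adjusted p = 2.92e-05 by limma). Gria1 stood at 9.46 and 11.02 FPKM against 19.4 and 20.3 (log2 fold change -0.95, adjusted p = 0.00047 by limma). For both genes the shPax6 libraries were far below the WT libraries.

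Markers of several cell types differed between these groups. Of the markers of ganglion cells 8 of 12 were lower in shPax6 PBS than in WT PBS, of amacrine cells 4 of 10, of OFF bipolar cells 1 of 6 and of neutrophils 4 of 4, with the sums given above. Among the 8 markers of bipolar cells as a whole 3 were lower and 0 higher. All 7 cone markers, led by Gngt2, were higher, with sums of 1252 and 1148 FPKM in shPax6 PBS against 608 and 631 in WT PBS. Of the 7 microglia markers, led by C1qa, 3 were higher, with sums of 135 and 122 against 37.6 and 41.0. Over all 14 lists 30 of the 86 tested markers were lower and 19 higher, beside 11.2% and 5.36% of all genes, or 26 and 20 corrected for length, where 8.83% of all genes were lower and 7.71% higher. The part of these cell types in the subunit differences was not tested.

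Gria3, Gria2, Gria4 and Grik5 were lower in shPax6 PBS by smaller or less certain margins. Gria3 stood at 4.65 and 5.71 FPKM against 10.5 and 10.1 (log2 fold change -0.98, adjusted p = 0.00929 by limma). Without WT PBS replicate 1, WT PBS replicate 2 or shPax6 PBS replicate 1 it was at -0.95, -1.01 and -0.84 and not called, and its adjusted p ran from 0.00399 to 0.0721 over 24 alternatives. Gria2 stood at 19.4 and 23.5 FPKM against 33.4 and 31.7 (log2 fold change -0.60, adjusted p = 0.00604 by limma). Without WT PBS replicate 1 it was at -0.56 and not called, with a range of adjusted p from 0.00408 to 0.0941. Neither of these genes overlapped between groups.

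The last pair of calls depended on the setting. Gria4 stood at 12.7 and 13.5 FPKM against 20.1 and 19.9 (log2 fold change -0.61, adjusted p = 0.0361 by limma). It was called in none of the settings that left out a WT PBS, shPax6 PBS or JNK3 KO library, at -0.65 to -0.56. With all libraries kept its call was also lost without a filter (adjusted p = 0.0563), with quantile normalization (0.0506), corrected for length (0.0713), with empirical Bayes without a trend (0.0529) and under the rule that asks for a log2 fold change above 1 in size. Its adjusted p by limma ran from 0.00362 to 0.156 over 24 alternatives. Grik5 stood at 17.8 and 19.3 FPKM against 26.8 and 30.2 (log2 fold change -0.62, adjusted p = 0.0172 by limma). Without WT PBS replicate 1, WT PBS replicate 2 or shPax6 PBS replicate 1 it was at -0.70, -0.53 and -0.56 and not called, nor was it with the spread taken from these groups alone or under the rule on fold size, with adjusted p from 0.00349 to 0.128 over 24 alternatives. The groups did not overlap for either gene. Grik3 was at 2.05 and 2.07 FPKM against 2.01 and 2.10, with a log2 fold change of 0.00 and a 95% interval from -0.79 to 0.79. Grik2 had a log2 fold change of -0.53 and was not called, but passed at -0.94 without shPax6 PBS replicate 2 and stood at -0.12 without shPax6 PBS replicate 1. Grik4, at 1.07 and 0.44 FPKM against 1.6 and 1.5, was not called at -1.05, nor at -1.61 and -0.50 without shPax6 PBS replicate 1 or 2.

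Between JNK3 KO and WT under PBS 0 of the 9 subunits were called by limma with Benjamini-Hochberg adjustment, beside 0.407% of all genes lower and 1.10% higher. At an unadjusted p under 0.05, 2 were lower, Gria2 (log2 fold change -0.35, adjusted p = 0.168) and Gria1 (log2 fold change -0.24, adjusted p = 0.32). Gria2 stood at 24.3 and 26.7 FPKM in JNK3 KO against 33.4 and 31.7 in WT, so the groups did not overlap. Corrected for length, which carries a rho of -0.363 here, Gria2 was at -0.19 and Gria1 at -0.07. The medians were -0.23 for the subunits and 0.00 for all genes. Of all calls 73.1% were higher, against 56.6% in TPM, 53.1% with 75th-percentile scaling and 32.1% with quantile normalization.

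The NMDA response was then compared between genotypes by the test of the difference itself. WT minus shPax6 gave 5 subunits lower (Gria2, Gria3, Gria4, Grik1, Grik3) and 0 higher by limma with Benjamini-Hochberg adjustment, with 0 higher at an unadjusted p under 0.05, beside 31.4% of all genes lower and 18.3% higher. The median was -0.81 for the subunits and -0.28 for all genes, which became -0.01 with quantile normalization, 0.03 corrected for length and -0.80 in TPM. The share of calls that were higher was 36.8%, against 16.3% in TPM and 53.5% corrected for length. In TPM 9 subunits were lower, with quantile normalization 3, and corrected for length 1 was lower and 1 higher, beside 16.8% and 19.4% of all genes. WT minus JNK3 KO gave 7 lower (the 9 less Grik4 and Grik5) and 0 higher by limma, also at an unadjusted p under 0.05, beside 27.9% lower and 23.5% higher, with medians of -1.38 and -0.03, and -0.62 for all genes in TPM, where the share of calls that were higher was 23.2% against 45.7%. Corrected for length this difference was lower for 3 subunits and higher for 2, beside 15.8% and 18.4% of all genes. Both differences share the 4 WT libraries and the trend on length in them.

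Gria2 differed from both other genotypes in all 24 alternative settings. Its response was -3.08 in WT, -0.99 in shPax6 and -0.15 in JNK3 KO on the log2 scale. The difference was -2.09 against shPax6 (SE 0.16, adjusted p = 1.22e-05 by limma) and -2.93 against JNK3 KO (SE 0.16, adjusted p = 1.11e-06 by limma). Corrected for length these were -1.04 and -1.72, and the adjusted p ran from 3.99e-06 to 0.000807 and from 5.87e-07 to 5.46e-05 over the alternatives, so the WT response stayed the larger one. Gria1 turned under that correction, to 0.96 against shPax6 and 0.50 against JNK3 KO, both called higher, from -0.14 and -0.79 as deposited.

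The other differences depended more on the scale. For Gria3 the difference from shPax6 was -1.09 and from JNK3 KO -1.80, and corrected for length -0.07 and -0.64 with neither called. With quantile normalization its difference from shPax6 was -0.57 and not called. For Gria4 they were -0.81 and -1.86, and corrected 0.15 and -0.78, of which the difference from JNK3 KO was called. The Gria4 difference from shPax6 also lost its call with quantile normalization (-0.36), with the spread taken from these groups alone, under the rule on fold size, and without WT PBS replicate 1 (-0.80), WT PBS replicate 2 (-0.81), WT NMDA replicate 2 (-0.73) or shPax6 PBS replicate 1 (-0.76).

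For Grik1 the differences were -0.48 and -0.69, and corrected -0.05 and -0.38, again with a call against JNK3 KO. Grik3 differed by -2.25 and -2.12 as deposited and by -0.81 and -0.23 corrected, with no call. Grik2 differed by -0.61 from shPax6, which was not called but passed at -1.02 without shPax6 PBS replicate 2, and by -1.38 from JNK3 KO, or -0.20 corrected and not called. Grik4 was not called at -1.69 and -0.96, the first of which passed at -2.25 without shPax6 PBS replicate 1. Grik5 was not called at -0.15 and 0.24, the first of which passed at -0.38 without shPax6 NMDA replicate 1 and stood at 0.08 without shPax6 NMDA replicate 2. Corrected for length its difference from JNK3 KO was 0.87 and called higher.

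Transcripts of 1 gene share reads, so their FPKM are estimates that depend on each other. Their split can differ between the libraries of a group. In WT NMDA replicates 1 and 2, Gria1-202 stood at 5.17 and 11.8 FPKM and Gria1-204 at 6.43 and 0. Of 35 transcripts of the 9 genes that passed the filter, 17 were lower and 1 higher after NMDA in WT by limma with Benjamini-Hochberg adjustment over 49940 transcripts, beside 23.5% lower and 11.7% higher of all. No background by length was taken for transcripts, and among genes 41% of 2 to 4 kb and 76.9% of 4 to 6 kb were lower in WT. The count of 17 is thus by itself no result about the subunits. In shPax6 0 were lower and 2 higher by limma, with 7 and 3 at an unadjusted p under 0.05, beside 3.63% and 4.71% of all. With a pseudocount of 1 FPKM 3 were lower and 1 higher there, and Grik5-203 lost its call. In JNK3 KO 0 were lower and 0 higher by limma, with 0 and 2 at an unadjusted p under 0.05, beside 0.775% and 0.537% of all.

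Within Grik5, whose gene level overlapped between WT groups, a pair of transcripts went opposite ways. The protein-coding Grik5-201 went from 21.2 and 22.9 FPKM in WT PBS to 4.74 and 6.29 in WT NMDA (log2 fold change -1.99, adjusted p = 0.000132 by limma). Grik5-202, annotated as a target of nonsense-mediated decay, stood at 2.80 and 0.77 FPKM and then at 24.2 and 21.8. Its groups did not overlap, and it was not called with a pseudocount of 0.1 (log2 fold change 3.86, adjusted p = 0.221 by limma) but was with a pseudocount of 1 FPKM (log2 fold change 3.21). In the other 8 libraries Grik5-202 reached at most 3.08 FPKM. The 2 models share 3572 bases and differ in the first 191 bases of Grik5-201 and in bases 357 to 381 of Grik5-202, so their split rests on fragments that cover those bases, near the 5′ end. Coverage along the transcripts was not tested.

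Transcripts of Grik1 went opposite ways too. Grik1-206, a protein-coding transcript, fell from 30.9 and 27.6 FPKM in WT PBS to 2.29 and 5.03 (log2 fold change -3.07, adjusted p = 0.000279 by limma). Grik1-204, a retained-intron transcript of 1394 bases that begins 366.4 kb into the gene, rose from 16.7 and 15.4 FPKM to 32.7 and 32.8 (log2 fold change 1.03, adjusted p = 0.0103 by limma). Neither pair overlapped. In shPax6 Grik1-204 also rose, from 5.74 and 3.36 FPKM to 12.98 and 10 (log2 fold change 1.35, adjusted p = 0.0114 by limma), while Grik1-206 stood at 16.9 and 16.8 and then 20.4 and 13.3. Grik1-206 is 3528 bases long, and the part of the trend on length in these values was not tested. The protein-coding Grik1-203 shares 2893 of its 2894 bases with Grik1-206. It stood at 9.45 and 10.18 FPKM in WT PBS and 16.43 and 16.96 in WT NMDA (log2 fold change 0.76, not called). Grik1-204 shares 865 bases with Grik1-206, so the split between these models depends on how shared fragments were assigned.

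All 5 tested transcripts of Gria2 were lower in WT after NMDA (Gria2-203 not with a pseudocount of 1 FPKM), with log2 fold changes from -1.61 for Gria2-201 to -4.95 for Gria2-206. The longest, Gria2-201 with 10371 bases, stood at 4.99 and 5 FPKM in WT PBS and 1.26 and 1.96 in WT NMDA. The protein-coding Gria2-202 stood at 12.7 and 11.02 FPKM and then 2.5 and 1.19 (log2 fold change -2.71, adjusted p = 0.0172 by limma). The tested retained-intron models, Gria2-204 and Gria2-206, were at or below 0.33 FPKM in both WT NMDA libraries. An annotated microRNA, Gm25749, shares 111 exon bases with Gria2 on its strand, and no gene on the opposite strand overlaps any of the 9.

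**Figure D5:**
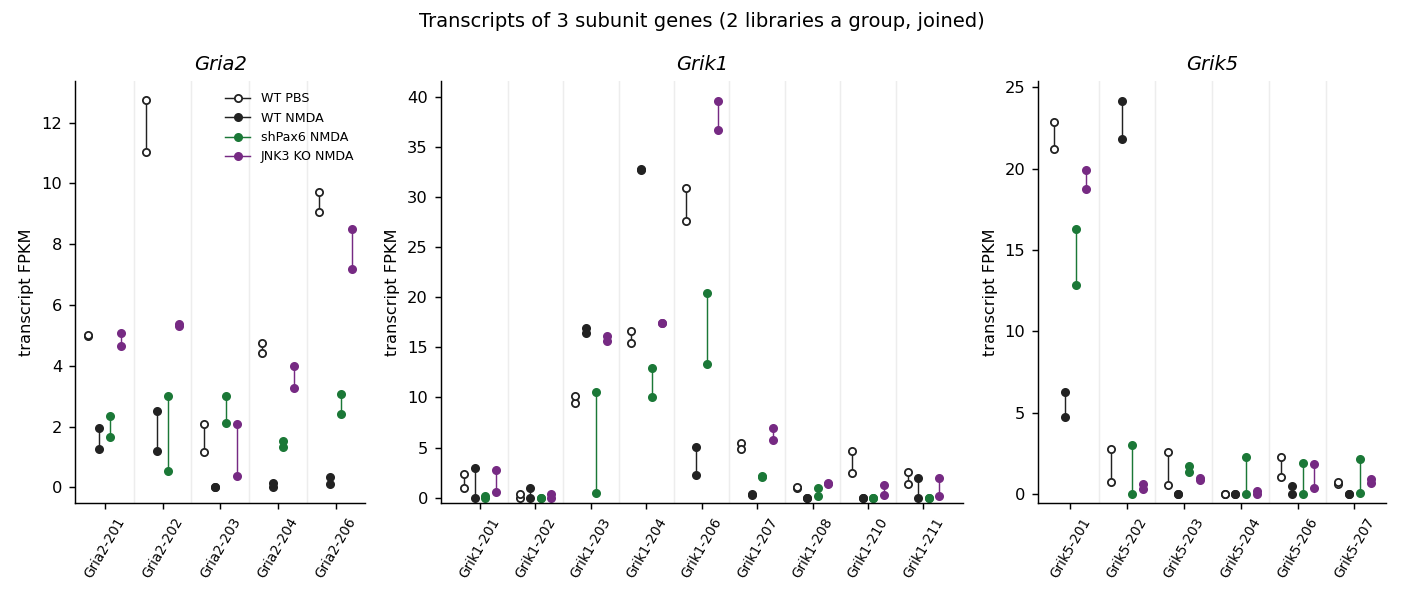
Transcript FPKM (vertical axes) of Gria2, Grik1 and Grik5 in WT PBS (open), WT NMDA (black), shPax6 NMDA (green) and JNK3 KO NMDA (purple), with the 2 libraries of a group as points joined by a line. Grik5-202 stands at 24.2 and 21.8 FPKM in WT NMDA and Grik5-201 at 4.74 and 6.29, and the 5 Gria2 transcripts are lower in WT NMDA than in WT PBS.

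AMPA and kainate receptors work with auxiliary subunits, scaffolds and other partner proteins, and 29 of their genes, in 7 roles, were counted. In WT 21 were lower and 0 higher after NMDA by limma with Benjamini-Hochberg adjustment, also at an unadjusted p under 0.05, beside 33.8% and 26.0% of all genes. As given above for the subunits, 76.9% of genes of 4 to 6 kb and 90.5% of those over 6 kb were lower in WT, and corrected for length 11 partners were lower and 2 higher, beside 22.1% and 23.8% of all genes. In shPax6 18 were lower and 2 higher, beside 11.0% and 19.1%. In JNK3 KO 5 were lower and 0 higher by limma, with 10 and 1 at an unadjusted p under 0.05, beside 6.10% and 4.33%. The median log2 fold changes of the partners were -1.04, -1.15 and -0.31, against -0.09, 0.10 and -0.01 for all genes, and -0.45 in WT corrected for length. Under PBS 9 were lower in shPax6 than in WT and 0 higher by limma, with 12 and 0 at an unadjusted p under 0.05, beside 11.2% and 5.36%. Between JNK3 KO and WT 0 were called by limma, with 3 lower at an unadjusted p under 0.05, beside 0.407% and 1.10%.

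The RNA-editing enzyme Adarb1, which edits the pore codon of Gria2, stood at 56.9 and 54.4 FPKM in WT PBS and 16.6 and 17.1 in WT NMDA, a log2 fold change of -1.72 (adjusted p = 3.40e-07 by limma), or -0.45 corrected for length, still called. In shPax6 it fell from 36.9 and 35.8 to 15.6 and 13.4 (log2 fold change -1.32, adjusted p = 7.82e-06 by limma), and in JNK3 KO from 42.1 and 44.6 to 31.9 and 33.1 (log2 fold change -0.41, adjusted p = 0.0164 by limma). The NMDA libraries were below the PBS libraries in all 3 genotypes. Corrected for length the values were -1.25 in shPax6 and -0.61 in JNK3 KO, both called, so the order of the genotypes depended on the scale. Whether the share of edited Gria2 RNA differed was not analysed here.

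Among the proteins that build and carry AMPA receptors, Frrs1l, which acts in their assembly, fell from 11.7 and 9.79 FPKM to 1.52 and 1.68 in WT (log2 fold change -2.67, adjusted p = 1.21e-06 by limma, or -1.34 corrected for length and called) and from 6.81 and 6.84 to 2.21 and 1.89 in shPax6 (log2 fold change -1.69). In JNK3 KO it stood at 7.41 and 6.43 and then 6.08 and 6.32 and was not called. The PBS and NMDA libraries did not overlap in WT, shPax6 or JNK3 KO. Cpt1c, the other gene of that role and the more abundant one, stood at 14.6 and 15.4 FPKM in WT PBS and 15.9 and 14.8 in WT NMDA, a log2 fold change of 0.03 (adjusted p = 0.834 by limma), which was 0.27 and called higher when corrected for length. In shPax6 it rose from 10.1 and 9.42 to 13.1 and 14.7 (log2 fold change 0.50, adjusted p = 0.00497 by limma), and in JNK3 KO it stood at 15.8 and 16.6 and then 13.2 and 12.6 and was not called. Cnih2, an auxiliary subunit that slows channel closing, had 12.3 and 11.7 FPKM in WT PBS and 11.2 and 13.7 in WT NMDA, a log2 fold change of 0.05 that was not called, and -0.60 corrected for length, called lower. It fell from 11.6 and 11.3 to 4.28 and 4.18 in shPax6 (log2 fold change -1.42, adjusted p = 0.000247 by limma) and from 10.7 and 11.7 to 6.03 and 4.39 in JNK3 KO (log2 fold change -1.10, adjusted p = 0.00384 by limma).

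Neto2, an auxiliary subunit of kainate receptors, fell from 8.08 and 7.93 FPKM to 1.82 and 1.70 in WT (log2 fold change -2.12, adjusted p = 0.00023 by limma), or -1.12 corrected for length, still called. In shPax6 it fell from 3.95 and 3.95 to 0.96 and 2.03 (log2 fold change -1.43, adjusted p = 0.00668 by limma), and in JNK3 KO it stood at 4.26 and 5.80 and then 5.72 and 5.35, not called. The groups overlapped in JNK3 KO alone. Of the 6 TARPs, the auxiliary subunits that anchor AMPA receptors at synapses, 6 were lower in WT, 4 in shPax6 and 0 in JNK3 KO by limma, where 3 were lower at an unadjusted p under 0.05, beside 33.8%, 11.0% and 6.10% of all genes. Corrected for length 2 of the 6 were lower in WT, beside 22.1%. The remaining partners are, like those above, the most abundant of their role or the ones with the largest log2 fold change in WT, so that the second kind was chosen for its WT values. Cacng7 and Cacng8, which are TARPs, Shisa6, an AMPA auxiliary subunit, the scaffolds Dlg4 and Grip1 and the pentraxin Nptx1 fell in WT, with log2 fold changes of -0.81, -1.46, -2.32, -0.71, -1.53 and -1.53. Corrected for length these were -0.86, -2.24, -1.24, -0.52, -0.74 and -0.42, all called except Shisa6. In shPax6 Grip1 and Nptx1 fell, at -1.15 and -1.34, while Cacng7, Cacng8, Shisa6 and Dlg4 were not called at -0.18, 0.92, 0.33 and -0.02. In JNK3 KO Nptx1 fell, at -0.83, and the other 5 were not called.

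Adar, another RNA-editing enzyme and the most abundant of its role, depended on the scale in WT. It went from 43.9 and 42.8 FPKM in WT PBS to 29.8 and 30.9 in WT NMDA, a log2 fold change of -0.51 (adjusted p = 0.00615 by limma), and was called higher, at 0.52, when corrected for length. In shPax6 it rose from 22.0 and 29.9 FPKM to 36.5 and 33.9 (log2 fold change 0.45, adjusted p = 0.024 by limma), and in JNK3 KO it stood at 42.2 and 46.2 and then 43.9 and 42.1, not called.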

How the data were processed

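RNA sequencing values of 12 mouse retina libraries, 2 in each of 6 groups named by the sample labels, were analysed. The deposited gene and transcript tables hold FPKM, which the authors made from paired reads of poly(A) RNA; the submitters' processing notes name STAR 2.7.1a, RSEM 1.3.3, edgeR 3.36.0, R 4.1.0 and GRCm38.p6. The tables hold no counts, so depth was estimated from the steps between low FPKM, and whether reads were counted by strand is not given in the sources used here.

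Values were tested as log2(FPKM + 0.1), a scale that understates changes of low genes, with limma 3.58.1 in R 4.3.3 (group means of 6 groups, 6 residual degrees of freedom, empirical Bayes with a trend). The fit took in the 16471 genes, or 49940 transcripts, whose mean exceeded 1 FPKM in any group. Tests were two-sided, with p-values adjusted by Benjamini-Hochberg over all of them and called at an adjusted p under 0.05. The fit was tested on simulated data. Alternatives were 2 other pseudocounts, 2 other filters, TPM, 75th-percentile scaling, quantile normalization, a lowess correction (span 0.3) of each library on transcript length, 2 other estimates of the spread, a replicate term, another call rule and each library left out. Transcript length is the mean of a gene's transcripts weighted by FPKM, from GENCODE M21, which matched 99.53% of genes; it replaced the exon union planned at first, before any gene was fitted. All subunits are described. Partners named are the most abundant of each role and the one with the largest WT log2 fold change. The subunits and the lists of partners and markers were chosen with earlier results of these data known. Protein sequences were not analysed here. Figures were drawn with matplotlib 3.10.9 in Python 3.11.15.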

Additional observations from a re-analysis of the deposited data

Results flagged for a closer look

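The test of the difference between genotypes in the response to NMDA picked out 12 values, all of them lower in WT. Against JNK3 KO the difference on the log2 scale was -2.93 for Gria2, -2.12 for Grik3, -1.86 for Gria4, -1.80 for Gria3, -1.38 for Grik2, -0.79 for Gria1 and -0.69 for Grik1. Against shPax6 it was -2.25 for Grik3, -2.09 for Gria2, -1.09 for Gria3, -0.81 for Gria4 and -0.48 for Grik1. Both sets share the 4 WT libraries, and with them the trend on transcript length. Of the 12, those still called lower under the length correction were Gria2 in both and Gria4 and Grik1 against JNK3 KO, while Gria1 against JNK3 KO was called higher.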

How the results depend on the processing

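Each of 63 subunit log2 fold changes was recomputed under 24 alternatives. Over 12 settings that kept all libraries, 697 of 756 values kept their direction and their side of the threshold, 37 lost a call, 9 gained one and 13 reversed. With a library left out, 719 of 756 kept both, 25 lost a call, 6 gained one and 6 reversed; the lone library of a group is then taken to vary like the others.

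The length correction reversed Gria1 (0.39) and Grik1 (0.03) in WT, Gria1 in JNK3 KO (-0.12), Gria1 (0.96), Gria4 (0.15), Grik2 (0.42) and Grik5 (0.51) in WT minus shPax6, and Gria1 in WT minus JNK3 KO (0.50). TPM reversed Grik5 in WT (-0.56) and in WT minus JNK3 KO (-0.35). Grik5 in WT also reversed with 75th-percentile scaling (-0.07) and quantile normalization (-0.10), which reversed Gria1 in WT minus shPax6 (0.16). With a library left out, Grik5 ran from -0.07 to 0.10 in WT, -0.06 to 0.40 in shPax6, -0.16 to 0.01 in JNK3 KO against WT under PBS and -0.38 to 0.08 in WT minus shPax6, Gria1 from -0.04 to 0.11 and Grik4 from -0.45 to 0.64 in JNK3 KO. The causes were not tested.

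With the spread taken from the compared groups alone, counts of called subunits went to 0 after NMDA in shPax6 and 3 for shPax6 against WT under PBS by limma, with 4 and 6 at an unadjusted p under 0.05. With calls at an unadjusted p under 0.05 and a log2 fold change above 1 in size, they were 2 and 1, and 0 after NMDA in JNK3 KO. WT minus shPax6 gave 9 in TPM, 3 with quantile normalization and 2 (1 lower, 1 higher) with the length correction, which gave 5 (3 lower, 2 higher) for WT minus JNK3 KO. With a library left out, the counts ran from 6 to 7 in WT, 4 to 6 in shPax6, 0 to 1 in JNK3 KO (0 without PBS replicate 1 or NMDA replicate 2), 2 to 6 for shPax6 against WT under PBS (2 without WT PBS replicate 1, 3 without WT PBS replicate 2 or shPax6 PBS replicate 1), 0 to 0 for JNK3 KO against WT under PBS, 4 to 6 for WT minus shPax6 and 7 to 7 for WT minus JNK3 KO. Transcripts called in shPax6 went from 2 to 4 (3 lower, 1 higher) with a pseudocount of 1 FPKM. Subunit shares moved by at most 0.1 percentage points when summed from transcripts. Gene FPKM are such sums, so this setting could move the shares by rounding alone and says nothing of how firm they are.

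Replicate numbers did not pair the libraries: deviations from group means correlated at -0.1 to 0.09 over 15 pairs of groups. With the replicate block, Grik4 in WT minus shPax6 passed (-1.69, adjusted p = 0.0494, with a range from 0.0254 to 0.351 over its alternatives), and no other subunit call changed.

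These data have 2 libraries a group, pooled retinas, no shScramble libraries here and no given time after NMDA. Whole-retina RNA does not separate cell loss from RNA level, and FPKM give no count of fragments.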

Other observations

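The gene whose values followed a subunit most closely over the 12 libraries was searched among 13890 genes by Pearson's r of log2(FPKM + 0.1). Gria2 was most like Serinc1 (r = 0.998) and Itfg1 (0.995), Gria4 most like Cadm3 (0.990) and Gria1 most like Ttc9 (0.984). Among the kainate subunits Grik3 was most like Satb1 (0.984), Grik2 most like Sema3a (0.983), Grik1 most like Hsd17b12 (0.967), Grik5 most like Ms4a8a (0.953) and Grik4 most like Fuca2 (0.850). Between subunits r was highest, at 0.95, for Gria3 with Gria4, Gria3 with Grik2 and Gria4 with Grik2, and lowest, at -0.34, for Grik3 with Grik5. The 12 libraries fall into 6 groups and share the WT trend on length, so these are descriptions of the libraries.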
